A study of Mus musculus with 6 samples.

Results

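The genes described here encode the matrix metalloproteinases (MMPs), the ADAMTS proteases, the ADAMTS-like proteins and the tissue inhibitors of metalloproteinases (TIMPs) of the embryonic mouse heart. They were taken by gene symbol, as every row of the count table whose symbol is Mmp, Adamts, Adamtsl or Timp followed by a number and, for some MMPs, a letter. The rule found 51 genes among the 46983 listed, namely 23 Mmp, 19 Adamts, 5 Adamtsl and 4 Timp genes, and it used no measured value. RNA was sequenced from whole hearts of E13.5 mouse embryos, strain C57BL/6 x DBA/2, with 1 heart per library. The 3 mutant hearts (replicates 1, 5 and 10) are labelled TnnT2Cre;Wt1flox. Per the study's methods they carried 2 floxed alleles of Wt1, the gene of the Wilms' tumour transcription factor, and 1 Tnnt2 Cre allele. The 3 control hearts (replicates 2, 3 and 5) are labelled wild type, but per those methods they were also homozygous for the floxed Wt1 allele and lacked Cre, so that every heart carried the floxed alleles. Tnnt2 Cre recombines in cardiomyocytes and, per the study, also in part of the epicardium. Whole hearts mix all cardiac cell types, so that fewer cells of a type and less RNA per cell cannot be told apart.

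Matrix metalloproteinases are zinc enzymes that cut collagens, proteoglycans and cell surface proteins, either after secretion or while held at the cell membrane. ADAMTS proteases are secreted relatives with thrombospondin repeats, which bind matrix and cut proteoglycans such as versican or trim procollagens. ADAMTS-like proteins share those repeats but lack the catalytic domain, and TIMPs block the active site of the proteases. In the developing heart, cleavage of versican and remodelling of collagen accompany the shaping of endocardial cushions, valves and trabeculae.

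By GENCODE M21 (GRCm38) the 51 genes lie on 18 chromosomes, and 50 are protein coding, with Mmp1a listed as a polymorphic pseudogene. A run of 10 Mmp genes lies on chromosome 9 between 7272514 and 7699585, in the order Mmp13, Mmp12, Mmp1b, Mmp3, Mmp1a, Mmp10, Mmp8, Mmp27, Mmp20 and Mmp7. Neighbouring pairs are Adamts1 with Adamts5 on chromosome 16, Adamts15 with Adamts8 on chromosome 9, and Adamts13 with Adamtsl2 on chromosome 2. Timp1, Timp3 and Timp4 each lie within a synapsin gene, Syn1, Syn3 and Syn2. Promoters of the chromosome 9 run are shown beside others, as the 120 bases before the RefSeq start of 4 of its genes. The same window follows for 4 genes elsewhere, Mmp14, Adamts1, Adamts20 and Timp1. Mmp14 and Adamts1 were the most abundant of their role, and Timp1 was less abundant than Timp2 and Timp3. Adamts20, whose RefSeq start lies inside the longer GENCODE gene, had an unadjusted p under 0.05. The sequences are from RefSeq (GRCm38.p6), read 5′ to 3′ on the strand of the gene. Capitals mark the AP-1 letters (TGANTCA), the TATA box (TATAAA) and the GC box (GGGCGG, or its complement CCGCCC), each searched on both strands.

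Mmp13 (chr9:7272394-7272513, plus strand): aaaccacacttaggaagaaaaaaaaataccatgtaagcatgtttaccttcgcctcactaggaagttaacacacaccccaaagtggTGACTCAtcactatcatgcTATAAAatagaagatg
Mmp3 (chr9:7445702-7445821, plus strand): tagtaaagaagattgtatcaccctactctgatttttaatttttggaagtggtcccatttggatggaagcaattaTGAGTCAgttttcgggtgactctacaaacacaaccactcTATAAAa
Mmp10 (chr9:7502222-7502341, plus strand): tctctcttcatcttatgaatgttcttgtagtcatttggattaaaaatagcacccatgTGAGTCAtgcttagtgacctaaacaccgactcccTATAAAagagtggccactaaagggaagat
Mmp1a (chr9:7464021-7464140, plus strand): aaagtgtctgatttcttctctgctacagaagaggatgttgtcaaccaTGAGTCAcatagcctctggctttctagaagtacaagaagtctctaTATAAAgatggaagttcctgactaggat
Mmp14 (chr14:54431478-54431597, plus strand): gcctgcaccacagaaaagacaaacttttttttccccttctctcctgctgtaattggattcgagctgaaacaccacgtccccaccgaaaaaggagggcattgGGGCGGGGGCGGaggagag
Adamts1 (chr16:85803114-85803233, minus strand): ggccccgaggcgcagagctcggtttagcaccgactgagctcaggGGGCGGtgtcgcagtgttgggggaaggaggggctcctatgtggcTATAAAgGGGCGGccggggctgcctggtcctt
Adamts20 (chr15:94404351-94404470, minus strand): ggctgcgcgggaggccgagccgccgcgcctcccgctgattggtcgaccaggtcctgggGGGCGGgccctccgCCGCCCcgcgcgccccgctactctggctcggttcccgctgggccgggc
Timp1 (chrX:20870046-20870165, plus strand): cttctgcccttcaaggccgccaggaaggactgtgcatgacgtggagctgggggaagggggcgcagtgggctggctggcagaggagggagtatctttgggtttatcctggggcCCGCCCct

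Promoters of 36 of the 51 genes were in the RefSeq table, each of 300 bases with 250 before and 50 after the start. The AP-1 letters were in the promoters of 8 of these 36 genes, against 7.81% of all 32851 promoters in the table. All 8 lay in the chromosome 9 run (Mmp7, Mmp10, Mmp12, Mmp13, Mmp1a, Mmp1b, Mmp20 and Mmp3), and all 8 also held a TATA box. The TATA letters were in 12 of the 36 genes and in 13.6% of all promoters. The GC box was in 22 of the 36 genes and in 35.7% of all promoters, and in no gene of the run. The core shared by WT1 and EGR factors (GTGGGNG, which can overlap a GC box) was in 17 of the 36 genes and in 31.6% of all promoters. A match says only that the letters are in the window.

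Levels were set beside the motifs. Of the 8 genes with AP-1 letters, 1 (Mmp13) had enough counts to be tested, and the highest mean FPKM (counts scaled to gene length and library total, the unit in which genes are compared) among them was 0.0751. Of the 22 genes with a GC box, 20 were tested, with a median mean FPKM of 6.49 and a range from 0.0189 to 173. The 2 not tested, Adamts13 (0.0189 FPKM) and Mmp24 (0.0250), lay below Mmp13, and the genes of the run without AP-1 letters, Mmp8 (0.0138) and Mmp27 (0), were as low as those with them. Promoter letters and membership of the chromosome 9 run go together in this set, and their parts in the level cannot be told apart.

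**Figure D1:**
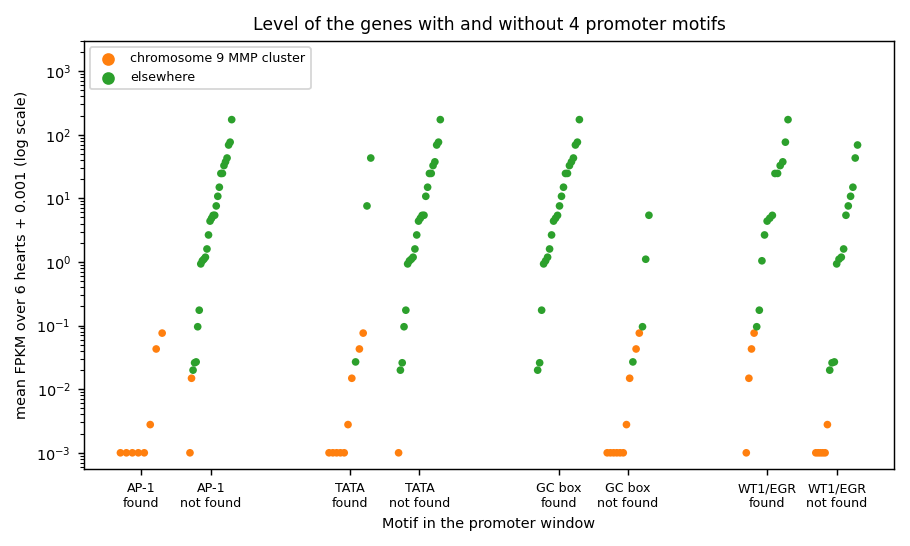
Mean FPKM over the 6 hearts, plus 0.001 and on a log axis, of the 36 genes with a RefSeq promoter, split by whether each of 4 motifs was found in it, with 1 point per gene. The 8 genes with AP-1 letters all belong to the chromosome 9 run and reach at most 0.0751 FPKM, and the GC box genes run from 0.0189 to 173 FPKM.

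The 6 libraries held between 44244665 and 56373393 counts. Of the 51 genes, 45 had at least 1 count, and Mmp1a, Mmp1b, Mmp7, Mmp10, Mmp20 and Mmp27 were at 0 in every heart. A count of 0 allows up to 3 counts, which was 0.0522 to 0.0682 CPM (counts scaled to the TMM-normalised library total, with no scaling to length) depending on the heart, for counting error only. The filter on low counts kept 39 genes for testing. The other 12 were the 6 at 0 and Mmp3, Mmp8, Mmp12, Mmp21, Mmp24 and Adamts13. The mean FPKM was 10 or more for 13 genes, between 1 and 10 for 18, and under 1 for 20.

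The most abundant member was Mmp14, the membrane-type 1 MMP that activates the gelatinase Mmp2 at the cell surface. Its mean FPKM over the 6 hearts was 173, and its share of the summed FPKM of all MMPs was 44.9% ± 4.32 (SD, n = 3) in wild type and 47.6% ± 1.46 (SD, n = 3) in mutant hearts. It was followed by Mmp15, another membrane-type MMP, at 76.4 FPKM, Timp2 at 68.9, Mmp2 at 49.7 and Adamts1 at 43.0. The FPKM ranges over the 6 hearts of Mmp15 (61.2 to 89.1) and Timp2 (55.0 to 75.8) overlapped, as did those of Mmp2 (37.1 to 59.0) and Adamts1 (31.3 to 50.4), whereas Mmp14 (121 to 201) lay above them all. Mmp14, Timp2 and Mmp2, whose products meet in the complex that activates Mmp2, were thus among the 4 members highest in FPKM. The secreted collagenases were near the limit of detection, since Mmp13 had a mean FPKM of 0.0751 and Mmp8 of 0.0138.

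**Figure D2:**
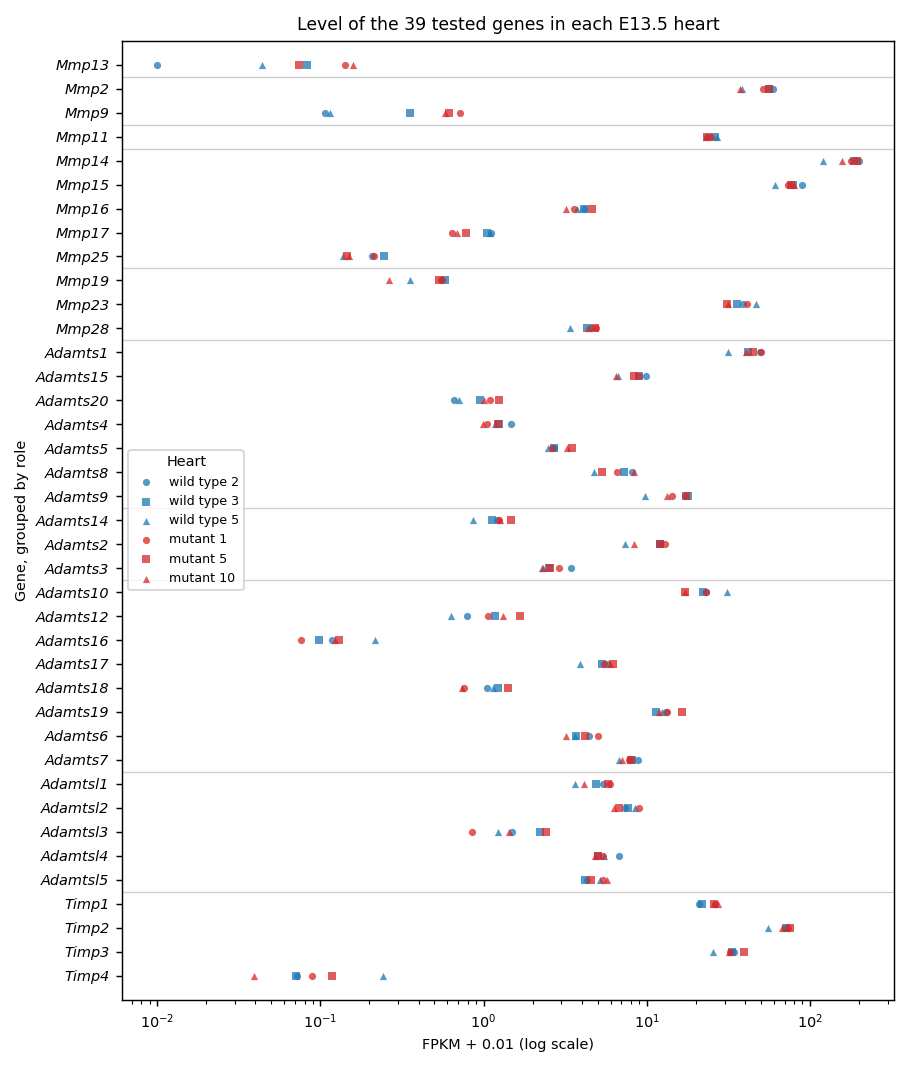
FPKM plus 0.01 on a log axis of the 39 tested genes in each of the 6 hearts, grouped by role from collagenases at the top to TIMPs at the bottom, with wild type hearts in blue and mutant hearts in red. Mmp14 lies highest with 121 to 201 FPKM, and Mmp9, Mmp13, Mmp19, Mmp25, Adamts16 and Timp4 lie below 1 FPKM in every heart.

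The comparison of the design asked what loss of Wt1 under the Tnnt2 Cre driver changes in the heart. The Wt1 transcript itself, summed over the whole gene, was at 39.97, 32.9 and 19.97 CPM in wild type replicates 2, 3 and 5 and at 17.7, 33.3 and 35.7 CPM in mutant replicates 1, 5 and 10. The groups overlapped, with a log2 fold change of -0.10 (SE 0.309, adjusted p = 0.990 by edgeR's quasi-likelihood test). Counts per gene do not separate the deleted part from the rest of the transcript, and the epicardium outside the Cre lineage keeps the gene, so that the count does not check the labels.

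No gene of the protease and inhibitor families passed the threshold (Benjamini-Hochberg adjusted p under 0.05). With edgeR's quasi-likelihood test 0 of the 17473 genes tested did so (0% called), and 1002 had an unadjusted p under 0.05. The families had no call with DESeq2 either, where 132 of 20013 did (0.660%). At an unadjusted p under 0.05 there were 4 of the 39 genes, beside 5.73% of all genes tested. Mmp9, Adamts12 and Adamts20 were higher in the mutant hearts, beside 3.14% of all genes, and Mmp17 was lower, beside 2.59%. In CPM the 3 mutant hearts all lay to 1 side of the 3 wild type hearts in 6 of the 39 genes, where 11.2% of all genes did. Mutant hearts lay above in Mmp9, Mmp28, Adamts14, Adamts20 and Timp2, beside 6.61% of all genes, and below in Mmp17, beside 4.59%. The log2 fold change of mutant over wild type was above 0 in 21 genes and below 0 in 18, with a median of 0.04 beside -0.001 over all genes tested. With 1 heart left out in turn the median lay between -0.03 (wild type replicate 5 left out) and 0.16 (wild type replicate 2 left out).

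**Figure D3:**
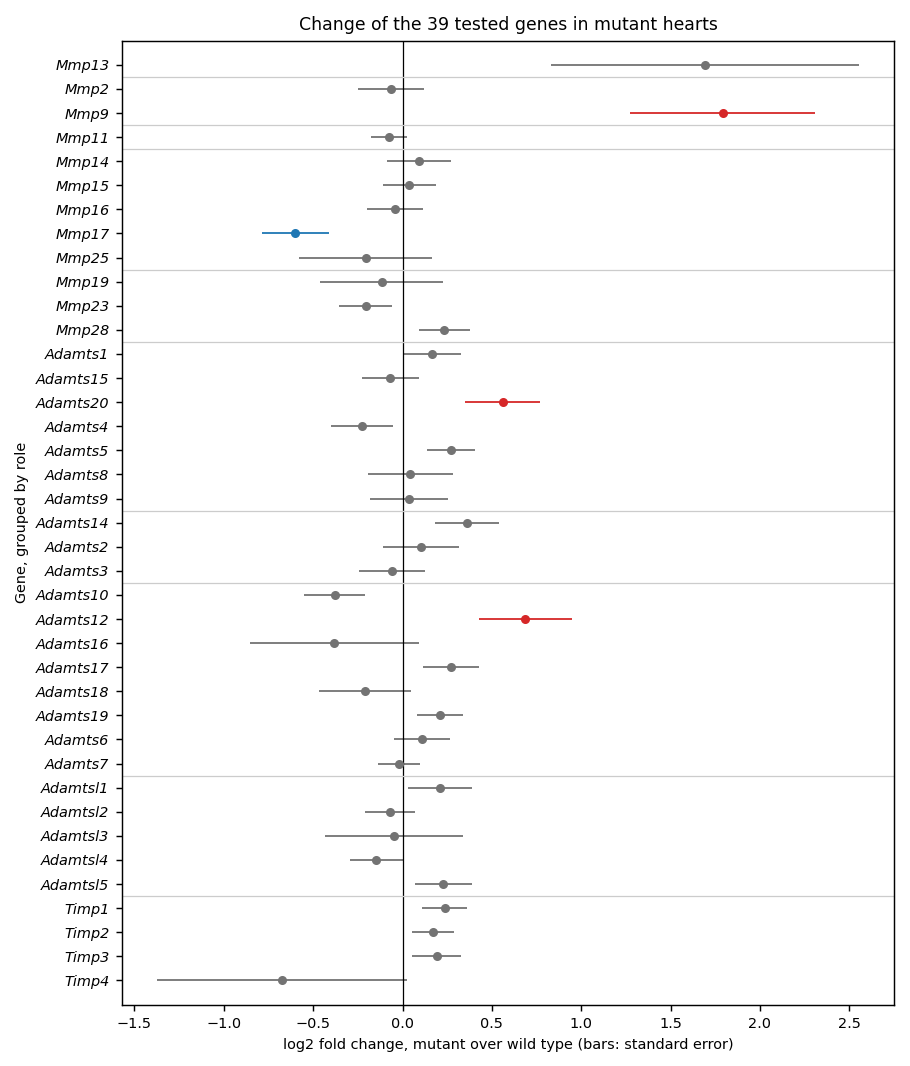
Log2 fold change of mutant over wild type with its standard error for the 39 tested genes, grouped by role, from edgeR. Red and blue points have an unadjusted p under 0.05, which are Mmp9, Adamts12 and Adamts20 to the right and Mmp17 to the left, and grey points do not.

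Among the gelatinases, which cut denatured collagen and basement membrane, Mmp9 and Mmp2 stood far apart in level. Mmp9 (gelatinase B, chr2:164940780-164955850), known as a product of macrophages and other myeloid cells, was counted 7, 25 and 6 times in the wild type (replicates 2, 3 and 5) and 47, 41 and 39 times in the mutants (replicates 1, 5 and 10). In CPM these were 0.124, 0.435 and 0.136, against 0.904, 0.782 and 0.775. Every mutant heart was above every wild type heart, and replicate 3 was the highest of the wild type. The log2 fold change was 1.79 (SE 0.518, unadjusted p = 0.0083, adjusted p = 0.636), and it lay between 1.49 and 2.64 with 1 heart left out. With DESeq2 the adjusted p was 0.190 over all 6 hearts and 0.0136 without wild type replicate 3, the setting in which Mmp9 passed the threshold. Mmp2 (gelatinase A) was at 177, 167 and 118 CPM in the wild type and at 153, 169 and 119 CPM in the mutant hearts. Its groups overlapped widely, and the log2 fold change was -0.06 (SE 0.186, adjusted p = 0.990).

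Markers of macrophages were mostly higher in the mutant hearts too. The marker lists were chosen with earlier results of these data known, so that the shares over all genes are given as description only. Of 10 macrophage markers, 9 had an unadjusted p under 0.05 by edgeR's test, all higher in the mutant hearts, beside 3.14% of all genes. In 9 every mutant heart lay above every wild type heart, beside 6.61% of all genes. None of the 10 passed the adjusted threshold in that test (smallest adjusted p = 0.113). The remaining marker, Mrc1, had a log2 fold change of -0.19. Their summed level was 82.7 to 94.3 CPM in wild type and 130 to 142 CPM in mutant hearts. Vsig4, a marker of resident macrophages, had 2, 3 and 0 counts against 34, 24 and 38, and Timd4, another, had 14, 30 and 7 counts against 138, 85 and 81. None of the 10 was at 0 in all hearts of a group. Of 6 platelet markers, 6 were higher and 4 had an unadjusted p under 0.05, with none past the adjusted threshold in edgeR (smallest adjusted p = 0.273). Their summed levels were 21.9 to 33.7 CPM against 36.3 to 51.9 CPM. The summed level of 7 lung and foregut epithelium markers was 22.7 to 26.4 CPM against 43.6 to 63.7 CPM, with 3 of the 5 tested higher and 2 lower. Cldn3 and Krt8, both higher, had an unadjusted p under 0.05 in edgeR, where the smallest adjusted p of the 5 was 0.0991. The median log2 fold change of the 5 was 0.09, between -1.59 and 2.34 with 1 heart left out. The part of these cell types in the level of Mmp9 was not tested.

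Mmp13, the collagenase of bone and cartilage, was at 0, 0.191 and 0.0909 CPM in the wild type and at 0.346, 0.172 and 0.417 CPM in the mutant hearts. The groups overlapped at mutant replicate 5, and the log2 fold change was 1.69 with an SE of 0.862 (adjusted p = 0.928), between 1.10 and 2.84 with 1 heart left out and 0.11 with limma on log2(FPKM + 1), a scale that understates changes of low genes. The other collagenases were too low to be tested. Of the stromelysins and matrilysin only Mmp11 (stromelysin-3) was tested, with 26.9, 29.6 and 31.2 CPM against 28.0, 27.1 and 28.1 CPM. These values lay close together in both groups, and the log2 fold change was -0.08 (SE 0.099, adjusted p = 0.985).

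Among the membrane-type MMPs, 2 of the 5 tested genes were higher and 3 lower. The lower one with an unadjusted p under 0.05 was Mmp17 (chr5:129584169-129611099), which is held at the membrane by a lipid anchor. It was at 3.82, 3.60 and 3.84 CPM in the wild type and at 2.17, 2.73 and 2.52 CPM in the mutant hearts. All mutant hearts lay below all wild type hearts, and both groups were tight. The log2 fold change was -0.60 (SE 0.189, unadjusted p = 0.013, adjusted p = 0.688), between -0.68 and -0.51 with 1 heart left out and -0.67 once the trend with gene length was removed. Mmp14 (chr14:54431612-54445364) was at 234, 215 and 144 CPM against 208, 228 and 196 CPM. Its wild type values spread further than its mutant values, and the log2 fold change of 0.09 (SE 0.179, adjusted p = 0.986) became -0.09 without wild type replicate 5. Of the remaining MMPs, Mmp23, a short MMP without the usual hemopexin domain, was at 35.1, 32.2 and 43.0 CPM against 36.9, 28.2 and 30.5 CPM, with a log2 fold change of -0.21 (SE 0.148, adjusted p = 0.981) that was -0.08 without wild type replicate 5. Mmp28 (epilysin) was at 9.36, 8.75 and 7.07 CPM against 10.004, 9.996 and 9.62 CPM. All mutant hearts were above in CPM, by a narrow margin over wild type replicate 2. In FPKM mutant replicate 10 (4.38) lay below wild type replicate 2 (4.56), so that the groups overlapped. The log2 fold change was 0.23 (SE 0.144, adjusted p = 0.964), or 0.13 without wild type replicate 5. In the annotation 12.0% of the exon bases of Mmp28 also lie in an exon of 1700020L24Rik on the other strand, and the strand setting of the counting is not given in the sources used here. The same limit holds for the 9 genes with over 5% of exon bases so shared, among them Mmp11 (5.58%), Adamts9 (12.0%) and Timp3 (21.3%).

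**Figure D4:**
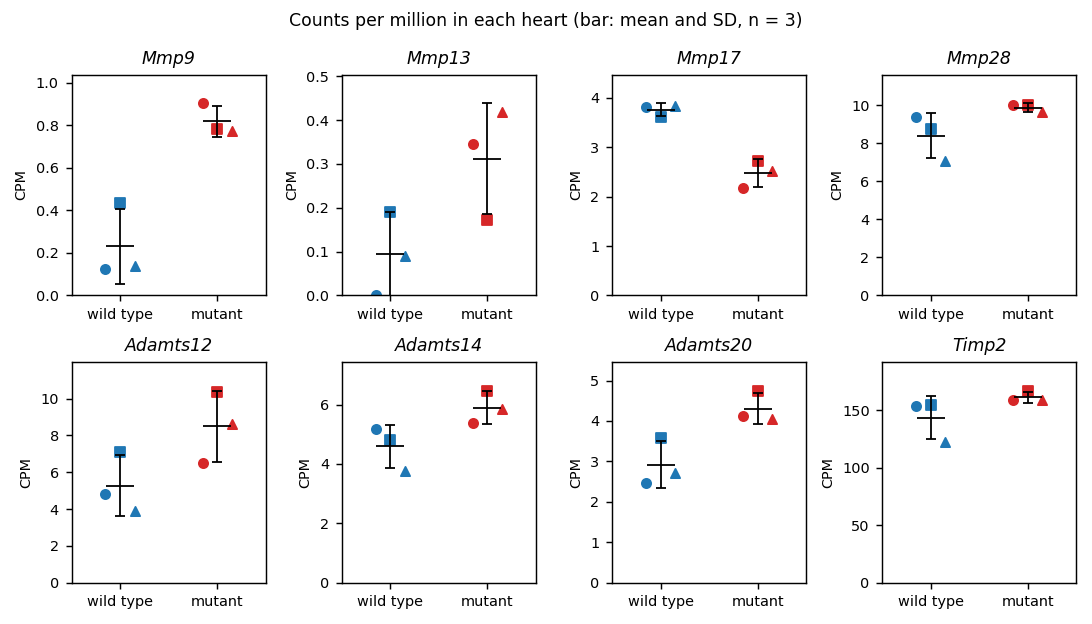
CPM per heart of 8 genes, with circle, square and triangle for wild type replicates 2, 3 and 5 (blue) and for mutant replicates 1, 5 and 10 (red), and bars for the mean and SD of 3 hearts. The groups do not overlap in Mmp9, Mmp17, Mmp28, Adamts14, Adamts20 and Timp2 and overlap in Mmp13 and Adamts12.

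All 7 ADAMTS genes of the group that cuts proteoglycans were tested, and 5 were higher and 2 lower. Adamts20 (chr15:94270163-94465418), a versican-cutting enzyme known for its role in pigment cell migration, was at 2.47, 3.58 and 2.70 CPM in the wild type and at 4.12, 4.75 and 4.05 CPM in the mutant hearts. The groups did not overlap, and the log2 fold change was 0.56 (SE 0.208, unadjusted p = 0.027, adjusted p = 0.793), between 0.45 and 0.74 with 1 heart left out. Adamts1 (chr16:85793827-85803113), the main versican-cutting protease of cardiac trabeculation, was at 130, 109 and 83.5 CPM against 131, 118 and 113 CPM. Its mutant values lay within or just above the wild type range, with a log2 fold change of 0.17 (SE 0.162, adjusted p = 0.985) that was 0.01 without wild type replicate 5. Its neighbour Adamts5, needed for clearing versican from the valves, was at 21.5, 21.5 and 20.2 CPM against 20.7, 28.0 and 27.7 CPM. Here mutant replicate 1 lay with the wild type and the other two mutants above it, at a log2 fold change of 0.27 (SE 0.135, adjusted p = 0.920), or 0.12 with the length trend removed. Adamts9, which also acts on versican in valves and myocardium, was at 70.6, 73.8 and 40.8 CPM against 58.5, 72.6 and 59.0 CPM, with a log2 fold change of 0.04 (SE 0.217, adjusted p = 0.995). The sign of Adamts9 turned to -0.19 without wild type replicate 5, which was low in this gene.

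The procollagen N-proteinases trim the amino end of fibrillar procollagens so that fibrils can form. Adamts2 was the most abundant of the 3, at 29.1, 28.7 and 18.1 CPM against 30.9, 29.3 and 21.4 CPM. In each group 1 heart was lower than the others, and the log2 fold change was 0.10 (SE 0.210, adjusted p = 0.989), or -0.09 without wild type replicate 5. Adamts14 was at 5.18, 4.82 and 3.77 CPM against 5.37, 6.47 and 5.86 CPM, so that its groups did not overlap. Its log2 fold change was 0.36 (SE 0.180, unadjusted p = 0.0797, adjusted p = 0.924), or 0.24 without wild type replicate 5. Adamts3, which also activates the lymphatic growth factor VEGF-C, had a log2 fold change of -0.06 (SE 0.183, adjusted p = 0.990).

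Of the 8 other ADAMTS genes tested, 4 were higher and 4 lower. Adamts12 (chr15:11064790-11349231), which cuts the cartilage protein COMP, was at 4.83, 7.11 and 3.89 CPM in the wild type and at 6.50, 10.4 and 8.64 CPM in the mutant hearts. Wild type replicate 3 exceeded mutant replicate 1, so that the groups overlapped, and the log2 fold change was 0.69 (SE 0.260, unadjusted p = 0.0295, adjusted p = 0.821). Without wild type replicate 5 it was 0.51, with an unadjusted p of 0.0618. Adamts10, which binds fibrillin microfibrils, was the most abundant of this group. It was at 70.1, 66.7 and 96.8 CPM against 70.4, 52.8 and 56.3 CPM, with wild type replicate 5 above all others. Its log2 fold change was -0.38 (SE 0.172, unadjusted p = 0.0573, adjusted p = 0.895), or -0.19 without that heart.

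Adamts13, the protease of von Willebrand factor that is made mainly in the liver, was below the filter and is named here because its counts all came from wild type hearts. Wild type replicates 2, 3 and 5 gave 7, 1 and 8 counts, against 0 in each of the 3 mutant hearts. The mean of the wild type hearts (0.108 CPM) was 1.85-fold the limit of 3 counts per library in the mutant hearts. Wild type replicate 3 (0.0174 CPM) lay below its own limit of 0.0522 CPM, so that no fold change can be bounded for that heart. DESeq2, which tested Adamts13, gave an unadjusted p of 0.0153 and no adjusted p. Hepatocyte markers differed far more between hearts than between groups. Their summed level was 1.39, 770 and 17.2 CPM in the wild type and 20.5, 1.24 and 1.75 CPM in the mutant hearts, with Alb at 0 counts in wild type replicate 2. Of the 6 markers 5 were tested, all lower in the mutant hearts and 4 with an unadjusted p under 0.05 in edgeR (smallest adjusted p = 0.659). Their median log2 fold change lay between -6.75 and 0.01 with 1 heart left out. Wild type replicate 3, with the highest level, had the fewest Adamts13 counts of its group. The part of liver cells in these counts was not tested.

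The 5 ADAMTS-like genes, whose products bind fibrillin and other matrix proteins without cutting them, had log2 fold changes between -0.15 and 0.23, with 2 higher and 3 lower. The most abundant, Adamtsl2, was at 16.7, 17.3 and 19.3 CPM against 20.1, 15.5 and 15.2 CPM. The groups overlapped, with a log2 fold change of -0.07 (SE 0.140, adjusted p = 0.989).

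Of the TIMPs, 3 were slightly higher in the mutant hearts and Timp4 was lower, none past the threshold. Timp2 (chr11:118301069-118355740), which with Mmp14 activates Mmp2, was at 153, 155 and 122 CPM in the wild type and at 159, 167 and 159 CPM in the mutant hearts. In CPM the groups did not overlap, but mutant replicates 1 and 10 lay only just above wild type replicate 3. In FPKM they overlapped, since mutant replicate 10 (67.9) lay below wild type replicates 2 (70.3) and 3 (71.4). The log2 fold change was 0.17 (SE 0.119, adjusted p = 0.976), or 0.07 without wild type replicate 5. Timp1 (chrX:20870166-20874735), which inhibits most secreted MMPs, was at 17.7, 18.3 and 22.4 CPM against 21.9, 22.2 and 24.7 CPM. Here wild type replicate 5 lay among the mutant hearts. The log2 fold change was 0.24 (SE 0.124, unadjusted p = 0.0933, adjusted p = 0.939), between 0.18 and 0.35 with 1 heart left out. By the same test the unadjusted p was 0.0135 (adjusted p = 0.560) once the length trend was removed. Without wild type replicate 5, the control heart that overlapped the mutants, the unadjusted p was 0.00745 (adjusted p = 0.230). Timp3 (chr10:86300372-86349506), which stays bound to matrix and also inhibits ADAMTS proteases, was at 76.5, 74.1 and 58.2 CPM against 72.7, 88.9 and 76.8 CPM. Its groups overlapped, with a log2 fold change of 0.19 (SE 0.135, adjusted p = 0.979), or 0.08 without wild type replicate 5, and 21.3% of its exon bases lie in an exon of Syn3 on the other strand. Timp4, the TIMP known from the adult heart, was at 0.195, 0.191 and 0.750 CPM against 0.250, 0.343 and 0.0994 CPM. Wild type replicate 5 was the highest heart, and the log2 fold change of -0.68 (SE 0.698, adjusted p = 0.985) became 0.26 without it.

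The balance of proteases and inhibitors was described by summing FPKM over each family. Summed FPKM of the TIMPs was 125, 126 and 107 in wild type and 132, 141 and 127 in mutant hearts, with no overlap between the groups. The margin was narrow, from 126.4 in wild type replicate 3 to 127.1 in mutant replicate 10. Taken singly, each of the 4 TIMPs overlapped between the groups in FPKM. The MMPs summed to 372 ± 61.8 (SD, n = 3) against 370 ± 28.8 (SD, n = 3) FPKM, and the ADAMTS proteases to 147 ± 18.3 against 148 ± 13.4 FPKM. Both protease sums overlapped between the groups. The ratio of the MMP sum to the TIMP sum was 3.364, 3.103 and 2.845 in wild type and 2.89, 2.78 and 2.65 in mutant hearts, so that wild type replicate 5 lay below mutant replicate 1.

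Genes of the same system outside these families were taken from 4 lists. Of 19 matrix substrates 18 were tested, 14 higher and 4 lower, with a median log2 fold change of 0.24 beside -0.001 over all genes tested, and 0.01 without wild type replicate 5. Those with an unadjusted p under 0.05 were the collagen I chains Col1a1 and Col1a2 and Acan, the cartilage proteoglycan aggrecan. Col1a1 was at 643, 695 and 367 CPM in the wild type and at 746, 1270 and 1280 CPM in the mutant hearts, and its groups did not overlap, with a log2 fold change of 0.95 (SE 0.285, adjusted p = 0.652). Col1a2 followed at 0.76 (SE 0.242, adjusted p = 0.688) and Acan, with overlapping groups, at 0.95 (SE 0.386, adjusted p = 0.843). These values are from edgeR, and with DESeq2 the adjusted p was 0.0517 for Col1a1, 0.127 for Col1a2 and 0.589 for Acan. Both collagen chains also belong to the list of 8 fibroblast markers and make up a large part of its summed level, which was 1890 to 2745 CPM in wild type and 2728 to 3960 CPM in mutant hearts. In that list 5 genes were higher and 3 lower, among them Tcf21, a transcription factor of the epicardium and fibroblasts, at a log2 fold change of -1.10 (SE 0.152, adjusted p = 0.113) with all mutant hearts below the wild type.

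Of 15 activators, inhibitors and clearance factors 9 were higher and 6 lower, with a median of 0.03. Thbs1, thrombospondin-1, was at 160, 138 and 71.5 CPM against 176, 212 and 183 CPM, with a log2 fold change of 0.63 (SE 0.263, adjusted p = 0.852) that was 0.35 without wild type replicate 5. Ctsk, the collagen-cutting cathepsin K, was at 19.1, 18.1 and 19.2 CPM against 20.5, 26.2 and 22.7 CPM, with a log2 fold change of 0.30 (SE 0.118, adjusted p = 0.828). In both genes all mutant hearts lay above the wild type hearts.

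In the plasminogen system, which activates several MMPs, 5 of 8 genes were tested, 3 higher and 2 lower, with a median of 0.04. Plaur, the urokinase receptor, was at 5.34, 5.65 and 7.16 CPM against 6.44, 8.39 and 10.9 CPM, with overlapping groups and a log2 fold change of 0.51 (SE 0.219, adjusted p = 0.868). Of 9 ADAM sheddases 8 were tested, 5 higher and 3 lower, none with an unadjusted p under 0.05, and the smallest p belonged to Adam10 at a log2 fold change of 0.24 (SE 0.146, adjusted p = 0.964).

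Wild type replicate 5 stood apart in the genes described here. Its median deviation from the mean of the 6 hearts, on the log2 CPM scale, was -0.29 over the 39 tested genes, where the other hearts lay between -0.05 and 0.14. It was the lowest heart in 19 of the 39 genes (48.7%), beside 31.1% of all genes tested. This heart was the highest in 6 of the 39, beside 29.3% of all genes tested, so that it was often extreme outside these families too. Deviations of this heart ran with gene length over 11795 genes (Spearman's rho -0.556, across genes, which are not independent replicates). Other hearts ran the opposite way, with 0.464 in mutant replicate 5, 0.383 in wild type replicate 2 and 0.316 in wild type replicate 3. Deviations are from the mean of the same 6 hearts, so that a trend in 1 heart is offset by opposite trends in others. Mutant replicates 1 and 10 were at -0.00619 and -0.0622. The tested members were long, with a median length of 3038 bases beside 1821 over all genes tested. With each heart's length trend removed, the median deviation of wild type replicate 5 was -0.13. It was then the lowest in 10 of 39 genes, beside 26.2% of all genes tested. Mutant replicate 10 was also the lowest in 10 of 39, beside 17.6% of all genes tested. In wild type replicate 5, medians were -0.65 over the matrix substrates, -0.54 over 8 epicardial markers, -0.48 over 8 endothelial markers and 0.83 over 7 erythroid markers. The erythroid median was higher still in mutant replicate 10, at 1.27. The part of each of these lists in the members' levels was not tested.

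**Figure D5:**
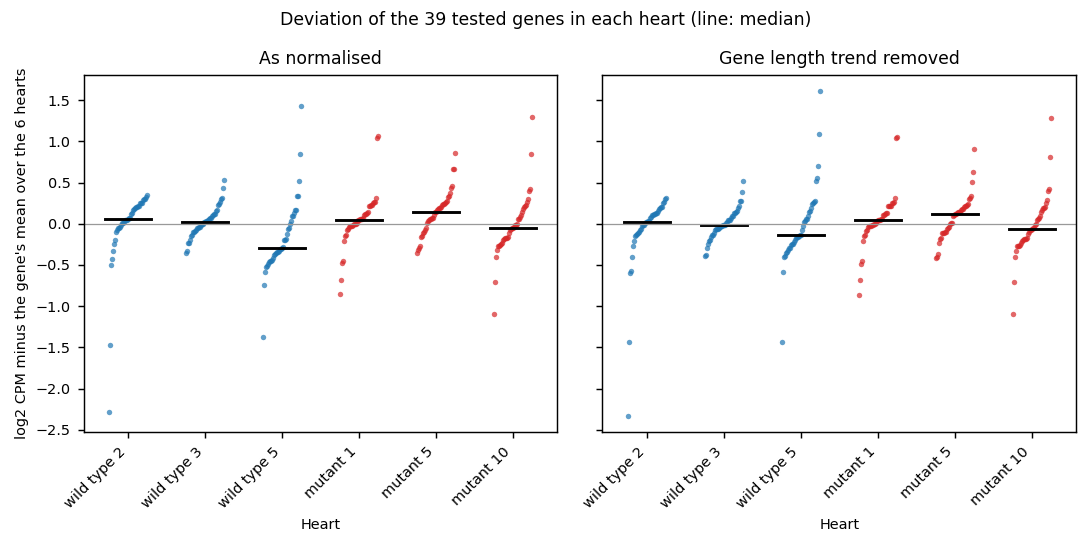
Deviation of each of the 39 tested genes from its mean over the 6 hearts on the log2 CPM scale, 1 point per gene and heart and a line at the median, as normalised (left) and with each heart's trend with gene length removed (right). The median of wild type replicate 5 is -0.29 on the left and -0.13 on the right, and those of the other hearts lie between -0.06 and 0.14.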

How the data were processed

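RNA-seq libraries came from 6 E13.5 hearts, each a single whole heart. Per the study's methods, the authors trimmed reads with Trim Galore, aligned them to mm10 with STAR and counted them per gene with featureCounts. The submitters' processing notes name HTSeq and DESeq2, and which counter made the table is not settled. The authors deposited raw counts, used here for all tests, and FPKM, equal to the count divided by 1 length per gene and by the heart's total. CPM was computed from the counts and TMM-scaled totals. All columns were mapped to a heart by its title.

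Mutant and wild type hearts were compared with edgeR 4.0.16 (R 4.3.3) by the two-sided quasi-likelihood test, with TMM normalization, filterByExpr (count minimum 10, total 15) and no covariates, Benjamini-Hochberg adjusted over 17473 genes. The SE is the log2 fold change divided by the square root of F. Alternatives were DESeq2 1.42.0, its size factors, no filter, limma 3.58.1 (voom, and a trend fit on log2 of FPKM plus 1 or 0.1), a per-heart length trend removed (loess span 0.5), and each heart left out. The script was tested on simulated data. Positions are from GENCODE M21 (GRCm38) and promoters from RefSeq (GRCm38.p6).

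Genes named with values were those past the adjusted threshold, with an unadjusted p under 0.05 or with groups that do not overlap, the most abundant of each role, all TIMPs, and Adamts1, Adamts5, Adamts9 and Mmp2. From each list of related genes, those with an unadjusted p under 0.05, or the smallest p, were named, and Wt1 as the target. A single result under this rule is not reported here. The members, lists and rules were chosen with earlier results of these data known.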

Additional observations from a re-analysis of the deposited data

How the results depend on the processing

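The count of all genes past the threshold was 0 in the comparison as reported, 132 with DESeq2, 34 with no filter on low counts, 6 with the length trend removed, 0 to 44 with 1 heart left out (44 without wild type replicate 5) and 41 with both the length trend removed and wild type replicate 5 left out, a setting added after seeing the data. Members past the threshold were 0 in each of these and 0 to 1 with DESeq2 and 1 heart left out, the 1 being Mmp9 without wild type replicate 3. Members with an unadjusted p under 0.05 were 4 as reported, 2 with limma on log2(FPKM + 0.1), 3 to 6 with 1 heart left out and 7 in the added setting. Members whose groups do not overlap were 6 as reported, 7 with no filter on low counts and 9 with the length trend removed. On FPKM they were 4, where Timp2 and Mmp28 overlapped. With 1 heart left out they were 9 to 13, where fewer hearts have to be separated. The shares of 5.73% and 11.2% over all genes are for the comparison as reported, and none is given for the other settings. Of 29 genes taken by the naming rule, the target aside, 23 kept the sign of their log2 fold change in every alternative, and 15 of 406 values turned. Adamts9 was -0.0147 with the length trend removed and -0.16 in the added setting, where Mmp14 was -0.13, Adamts2 -0.0775, Adamtsl2 0.00563 and Timp4 0.28. With 1 heart left out, Adamts9 lay between -0.19 and 0.19, Mmp14 between -0.092 and 0.23, Adamts2 between -0.0883 and 0.25, Mmp2 between -0.22 and 0.0696, Adamtsl2 between -0.21 and 0.00437 and Timp4 between -1.09 and 0.26. Causes of these turns were not tested. No paired analysis was possible because the labels used here give no litter or pair, and equal replicate numbers are not said to mark one. With 3 hearts a group, p-values set the group difference against the spread between these hearts, which is estimated in part across genes. Mmp9, Mmp13, Timp4 and Adamts13 rest on few counts.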
